A study of Rattus norvegicus with 12 samples.

Results

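The respiratory chain was described in RNA sequencing of the periaqueductal grey, a midbrain region that controls pain and carries part of the analgesic action of opioids. The series holds 12 libraries, 1 per animal, from male Sprague Dawley rats. In 6 of them the sire had received morphine (morphine-sired 1 to 6) and in 6 the sire had received saline (saline-sired 1 to 6). The labels give the offspring no drug treatment of their own, and no age, litter, dose or name of a sire, so each animal was taken as independent. The genes were chosen by name and not by level: nuclear genes whose symbols begin with Nduf (letters a, b, c, s or v and a number), Uqcr, Cox with a number from 4 to 8, Atp5 or Sdh (letters a to d), and the 13 protein genes of chromosome MT. Of 98 entries with these names, 95 had a mean of at least 0.5 TPM (StringTie's length-scaled level of a transcript, relative to the total of its library) and are the members described here, among 24540 genes tested and 41596 in all. They are 82 nuclear entries (36 of complex I, 4 of complex II, 9 of complex III, 17 of complex IV and 16 of complex V) and the 13 mitochondrial genes (7 of complex I, 1 of complex III, 3 of complex IV and 2 of complex V). Cox6c-ps1, Cox7b2 and Cox8c lay below 0.5 TPM.

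The respiratory chain is a set of protein complexes in the inner mitochondrial membrane. Complexes I and II pass electrons from nutrients to ubiquinone, complex III passes them to cytochrome c and complex IV to oxygen, and complex V, the ATP synthase, uses the proton gradient that complexes I, III and IV build up to make ATP. Complex II is encoded in the nucleus alone, while the others are mosaics of subunits made from nuclear mRNA and of subunits made inside the organelle from mitochondrial mRNA, so the supply from both genomes has to be matched. Neurons depend on this machinery to pay for ion pumping and transmission.

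Brain markers were high, although they do not show the region: the neuronal Snap25 lay at 1715 to 2090 TPM and the myelin gene Mbp at 5603 to 12543 TPM over the 12 libraries. Depth ran from 4.39 to 6.03 gigabases per library. Some libraries stood apart and touch results below. Morphine-sired 1, saline-sired 1 and saline-sired 6 were low in the 3 markers of cholinergic neurons (Chat, Slc5a7 and Slc18a3), whose summed level was 5.71 TPM in morphine-sired 1 and 52.7 to 136 TPM in the other morphine-sired libraries, against 3.81 and 3.19 TPM in saline-sired 1 and 6 and 82.6 to 115 TPM in the other saline-sired libraries. Morphine-sired 2 had Ttr, a choroid plexus gene, at 1756 TPM (at most 413 TPM elsewhere), the blood gene Hba-a1 at 1146 TPM (at most 524 TPM elsewhere), the lowest ependymal markers and the highest Mbp. Other choroid plexus markers were divided. Kcnj13 and Slc4a5 were also highest in morphine-sired 2, whereas Folr1 (28.3 TPM), Clic6 (14.5 TPM) and Prlr (3.88 TPM) were highest in morphine-sired 3 and Otx2 (8.71 TPM) in morphine-sired 5. Tph2, of serotonergic neurons, lay at 0.489 to 195 TPM in morphine-sired and 0.450 to 445 TPM in saline-sired libraries. In morphine-sired 6 the mitochondrial gene CYTB was nearly unlisted, and in 4 libraries ATP6 was low.

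No respiratory chain gene passed the test between morphine-sired and saline-sired rats. Limma on log2(TPM + 1), two-sided and with Benjamini-Hochberg adjustment over all 24540 genes, called 0 of the 95 members at an adjusted p under 0.05, where it called 0 of all genes tested, a background of 0%. At an unadjusted p under 0.05 limma listed 1 member, Cox6b2, against 790 of all genes (3.22%). Groups without overlap between their 6 values were found for 0 of 95 members and for 22 of all genes (0.0896%). The median log2 difference, morphine-sired minus saline-sired, was 0.00 over the 82 nuclear members, of which 41 had the higher mean in morphine-sired rats, and -0.08 over the 13 mitochondrial genes, of which 0 did. Over all genes tested the median was -0.00 and 12075 had the higher mean in morphine-sired rats.

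The precision was good for most members. The 95% interval of the log2 difference lay within 0.32 of 0 in either direction for 80 of the 95 members. These were 70 of the 82 nuclear and 10 of the 13 mitochondrial ones, where 38.1% of all genes tested had such an interval. The median half-width of the interval was 0.12 for nuclear members, 0.14 for mitochondrial genes and 0.30 over all genes. Among the 70 nuclear members at 100 TPM or more, the coefficient of variation over the 12 libraries had a median of 6.35%, beside 7.72% over all 1796 tested genes of that level. The intervals that went beyond 0.32 belonged to genes in loci that several symbols share (CYTB, ATP6, ATP8, Ndufs8, Ndufa5 and the Cox6b1 of chromosome 1), to low entries (Ndufs6, Cox6a2, Cox6b2 and Cox8b) and to Ndufs7, Uqcrb of chromosome 7, Cox6c, Cox7c and Cox7a1. Those of ATP8 (half-width 0.18) and Cox6c (0.26) were narrower than the median over all genes and went beyond 0.32 through their position.

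**Figure D1:**
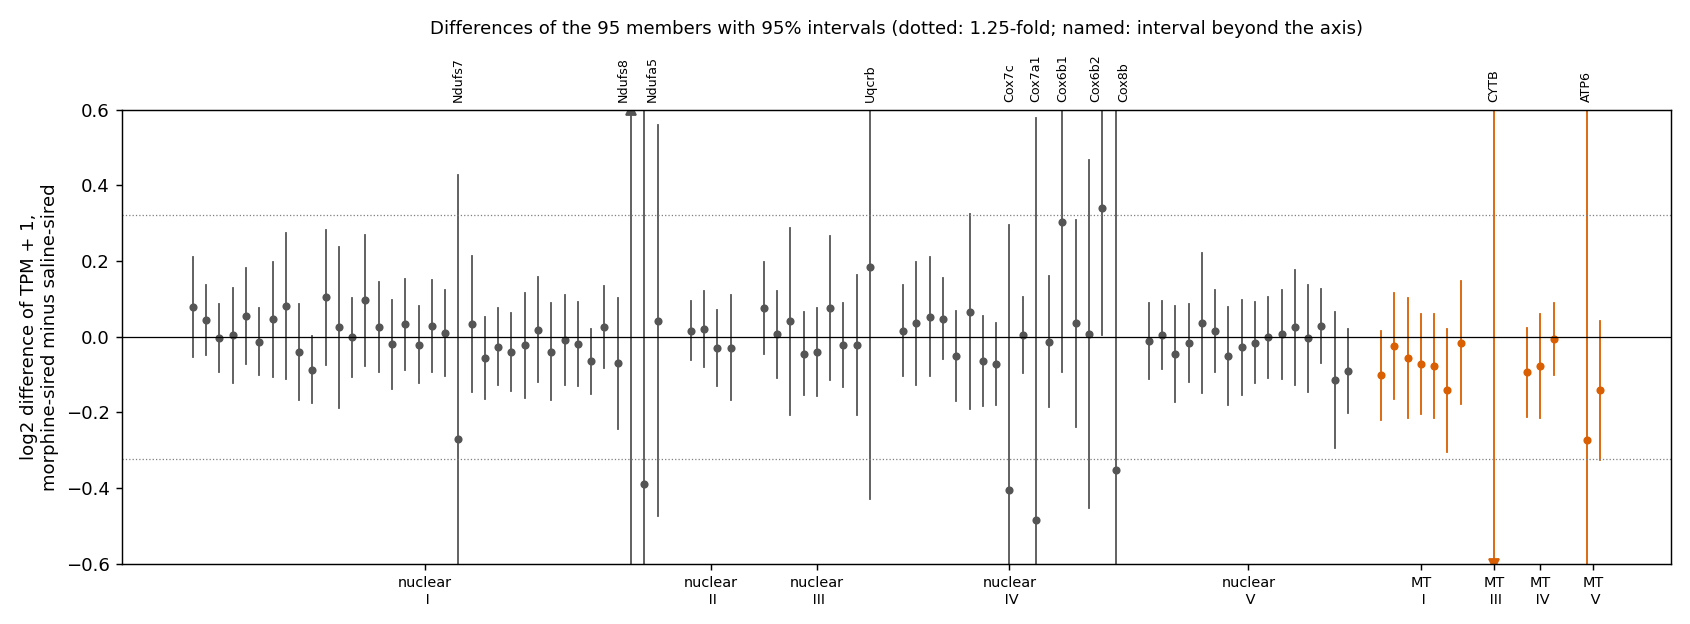
Log2 differences of TPM + 1 (vertical axis), morphine-sired minus saline-sired, of the 95 members with limma's 95% intervals, ordered by genome and complex and, within each, by falling mean TPM (grey, nuclear; orange, chromosome MT). Intervals that leave the axis are named, triangles mark values beyond it, and 80 of 95 intervals lie between the dotted lines at 0.32 on either side of 0.

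Complex I, NADH dehydrogenase, is the entry point for electrons from NADH and the largest of the complexes. Its 36 nuclear entries summed to 8072 to 8971 TPM with a median of 8630 in morphine-sired libraries, against 7829 to 9009 TPM with a median of 8808 in saline-sired libraries. The groups overlapped, with means of 8609 ± 304 TPM in morphine-sired and 8550 ± 549 TPM in saline-sired rats (SD, n = 6 each). The highest nuclear entries were accessory subunits. Ndufb8, in the membrane arm, lay at 520 to 582 TPM (median 538) in morphine-sired libraries and at 441 to 556 TPM (median 544) in saline-sired ones. Ndufa13, an accessory subunit also studied as a cell death regulator under the name GRIM-19, lay at 512 to 553 TPM (median 529) against 471 to 558 TPM (median 517) in saline-sired libraries. Ndufa8, a subunit on the side of the intermembrane space, lay at 447 to 469 TPM (median 457) against 419 to 489 TPM (median 463) in saline-sired libraries. In Ndufa13 and Ndufa8 the range of the morphine-sired libraries lay inside that of the saline-sired ones, and in Ndufb8 the ranges overlapped.

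The core subunits of the hydrophilic arm hold the flavin and the iron-sulfur clusters. Ndufv1, which binds the flavin, averaged 285 ± 12.9 TPM in morphine-sired and 285 ± 17.0 TPM in saline-sired rats. Ndufs1, the largest iron-sulfur subunit, averaged 186 ± 3.61 TPM in morphine-sired and 193 ± 15.1 TPM in saline-sired rats. A pair of further core subunits, Ndufs7 and Ndufs8, had values that depend on how transcripts are assigned. Ndufs7 lay at 93.5 to 254 TPM in morphine-sired and at 88.8 to 272 TPM in saline-sired libraries, and its annotated transcript was listed at 0 in morphine-sired 2, morphine-sired 3 and saline-sired 6, where longer assembled transcripts of the locus carried its level. Ndufs8 shares its locus with Aldh3b1, and its annotated transcript alone ran from 0.0691 to 127 TPM in morphine-sired and from 0.0564 to 40.8 TPM in saline-sired libraries. When the assembled transcripts of that locus were given to the gene whose exons they share most, Ndufs8 came to 92.6 to 194 TPM in morphine-sired and 81.1 to 175 TPM in saline-sired libraries, so most of its level had been missing and the groups overlapped either way.

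Of the nuclear complex I genes, Ndufa4, Ndufs4 and Ndufb8 had the smallest p. Ndufa4 carries a complex I name, although work on human cells places its protein with complex IV. It lay at 271 to 304 TPM (median 294) in morphine-sired libraries, against 289 to 324 TPM (median 311) in saline-sired libraries. Its log2 difference was -0.09 ± 0.04 (SE; limma adjusted p 0.9998). Ndufs4, an accessory subunit whose loss causes Leigh syndrome in humans, lay at 121 to 132 TPM in morphine-sired and at 127 to 141 TPM in saline-sired libraries, a difference of -0.07 ± 0.04, and Ndufb8 differed by 0.08 ± 0.06. In all 3 genes the groups overlapped, and 18 of the 36 nuclear entries had the higher mean in morphine-sired rats.

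One complex I entry is no measure of its subunit. The entry called Ndufs6 lies on chromosome 2 (Rnor_6.0, positions 26471173 to 26471584) and averaged 0.829 TPM. RefSeq's table for the newer build GRCr8 names Ndufs6 on chromosome 1 and a pseudogene, Ndufs6-ps1, on chromosome 2. The gene on chromosome 1 was not analysed here. Ndufa5, whose locus is shared with Iqub, is uncertain for the reason given for Ndufs8: its annotated transcript lay at 1.10 to 28.2 TPM in morphine-sired and at 1.06 to 23.2 TPM in saline-sired libraries, beside assembled transcripts that hold the exons of both genes.

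Complex II, succinate dehydrogenase, is also an enzyme of the citric acid cycle. Its 4 genes varied little. Sdha, the flavoprotein that oxidises succinate, lay at 427 to 444 TPM (median 437) in morphine-sired libraries, against 403 to 452 TPM (median 430) in saline-sired libraries, and its coefficient of variation of 3.12% was the lowest among the nuclear members at 100 TPM or more. The iron-sulfur subunit Sdhb averaged 303 ± 9.44 TPM in morphine-sired and 299 ± 19.4 TPM in saline-sired rats. The membrane anchors, Sdhc and Sdhd, averaged 267 ± 11.9 and 138 ± 13.1 TPM in morphine-sired rats and 273 ± 15.1 and 141 ± 7.16 TPM in saline-sired rats. Log2 differences of the 3 genes with the smallest p were -0.03 ± 0.05 for Sdhc, 0.02 ± 0.04 for Sdha and -0.03 ± 0.06 for Sdhd, and the 4 genes summed to 1145 ± 28.4 TPM in morphine-sired and 1144 ± 51.7 TPM in saline-sired rats.

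Complex III, the cytochrome bc1 complex, has nuclear core, Rieske and small subunits around the mitochondrial cytochrome b. Its 9 nuclear entries summed to 2341 ± 95.1 TPM in morphine-sired and 2309 ± 165 TPM in saline-sired rats. Uqcr11, a small subunit, was the highest of these at 447 to 520 TPM (median 473) in morphine-sired libraries, against 393 to 495 TPM (median 463) in saline-sired libraries, with a log2 difference of 0.08 ± 0.06. The core protein Uqcrc1 averaged 435 ± 15.8 TPM in morphine-sired and 434 ± 33.7 TPM in saline-sired rats. Uqcrh, the hinge protein that sits by cytochrome c1, spread more, with 335 to 440 TPM in morphine-sired and 305 to 513 TPM in saline-sired libraries. Uqcrfs1, the Rieske iron-sulfur protein, and Uqcr10 had the next smallest p after Uqcr11 among the nuclear entries, with differences of -0.05 ± 0.05 and 0.08 ± 0.09.

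The symbol Uqcrb stood at 2 loci of unlike level. The spliced gene on chromosome 7 (Rnor_6.0, positions 71264514 to 71269869, 4 exons) had 25.6 to 68.2 TPM (median 49.1) in morphine-sired libraries and 29.8 to 65.2 TPM (median 34.5) in saline-sired libraries. A single-exon copy on chromosome 1 (positions 94718402 to 94718876) had 138 to 163 TPM (median 150) in morphine-sired libraries and 142 to 164 TPM (median 153) in saline-sired libraries. RefSeq names the chromosome 1 copy Uqcrb-ps1, a pseudogene, and lists the gene on chromosome 7. The copy thus carried more of the level than the gene in every library, and reads of near-identical copies cannot be told apart here. Cox6b1 also has a single-exon copy, on chromosome 2 (RefSeq's Cox6b1-ps1), at 21.7 ± 1.93 TPM in morphine-sired and 21.9 ± 2.18 TPM in saline-sired rats.

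Complex IV, cytochrome c oxidase, hands electrons to oxygen. Its 17 nuclear entries summed to 6272 to 7521 TPM (median 6688) in morphine-sired libraries, against 6039 to 7157 TPM (median 6956) in saline-sired libraries. Cox4i1, the general form of the subunit that binds ATP, was the highest nuclear member of any complex, at 1573 to 1769 TPM (median 1644) in morphine-sired libraries and 1403 to 1776 TPM (median 1680) in saline-sired libraries. Cox6a1 averaged 1126 ± 91.9 TPM in morphine-sired and 1101 ± 110 TPM in saline-sired rats, and Cox5b averaged 831 ± 63.6 TPM and 802 ± 82.5 TPM in morphine-sired and saline-sired rats. All of these ranges overlapped.

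Several subunits of complex IV exist in a general form and in a form known from muscle, lung or testis, and in the periaqueductal grey the general form was far above the other. Cox4i1 exceeded Cox4i2, the form known for lung and low oxygen, by 453-fold on mean TPM, with Cox4i2 at 3.70 ± 0.854 TPM in morphine-sired and 3.55 ± 0.441 TPM in saline-sired rats. Cox6a1 exceeded the heart and muscle form Cox6a2 by 327-fold, with Cox6a2 at 3.33 ± 0.639 TPM in morphine-sired and 3.49 ± 1.48 TPM in saline-sired rats. Cox8a, the general form of the smallest subunit, exceeded the muscle form Cox8b by 391-fold. Cox8b lay at 0 to 6.92 TPM (median 0.703) in morphine-sired libraries and at 0 to 3.85 TPM (median 2.16) in saline-sired libraries, with its highest value in morphine-sired 2. Cox7a2 averaged 418 ± 32.7 TPM in morphine-sired and 437 ± 22.2 TPM in saline-sired rats, while the annotated transcript of its muscle form Cox7a1 lay at 0.0775 to 0.526 TPM in morphine-sired and at 0.158 to 0.427 TPM in saline-sired libraries. The locus of Cox7a1 sums to a mean of 78.6 TPM only through assembled transcripts that reach far beyond the gene. Of the 8 markers of skeletal and heart muscle, 5 were above the filter, and the sum over all 8 was 23.9 to 34.3 TPM in morphine-sired and 25.2 to 36.0 TPM in saline-sired libraries. Means ran from 0.0841 TPM for Mb and 0.136 TPM for Ckm up to 5.32 TPM for Myh7, 9.17 TPM for Acta1 and 11.7 TPM for Myh6.

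Promoters of nuclear members are shown for a pair of these paralogs and for one complex I gene. The stretches are the 250 bases before the transcription start from RefSeq (GRCr8), 5′ to 3′ on the gene's strand, with capitals marking matches to the motifs searched on both strands: an ETS-type motif (CCGGAAG), an NRF1-type motif (GCGCATGC), a YY1-type motif (AAGATGGCG) and a TATA box (TATAAA). Cox8a and Cox8b are shown as the general and the muscle form of one subunit at 723 and 1.85 TPM on average, and Ndufa6 as the member that held the first 3 motifs, chosen after the search.
Cox8a, chr1:213833624-213833873, minus strand: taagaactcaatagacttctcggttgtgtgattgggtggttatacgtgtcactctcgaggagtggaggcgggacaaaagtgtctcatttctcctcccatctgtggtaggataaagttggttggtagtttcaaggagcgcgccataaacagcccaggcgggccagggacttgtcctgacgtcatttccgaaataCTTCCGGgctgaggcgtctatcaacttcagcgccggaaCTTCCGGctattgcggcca
Cox8b, chr1:205408274-205408523, minus strand: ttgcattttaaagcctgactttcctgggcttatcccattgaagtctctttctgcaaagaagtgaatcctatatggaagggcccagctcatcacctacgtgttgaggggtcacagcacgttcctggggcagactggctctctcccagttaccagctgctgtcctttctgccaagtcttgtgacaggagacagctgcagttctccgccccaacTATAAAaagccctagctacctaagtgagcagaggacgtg
Ndufa6, chr7:115750318-115750567, minus strand: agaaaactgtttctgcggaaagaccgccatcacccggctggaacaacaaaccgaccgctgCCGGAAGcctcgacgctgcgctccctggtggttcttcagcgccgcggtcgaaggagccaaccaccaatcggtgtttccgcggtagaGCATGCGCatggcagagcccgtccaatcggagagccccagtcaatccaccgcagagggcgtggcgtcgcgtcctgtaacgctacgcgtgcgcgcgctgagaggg

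The Cox8a stretch holds the ETS-type letters in 2 places, at positions -57 and -19 from the start, and the Cox8b stretch holds a TATA box at -39 and none of the other motifs. Their windows of 300 bases (250 before and 50 after the start) hold 16 and 5 CpG dinucleotides, for Cox8a and Cox8b in turn. In Ndufa6, the ETS-type and NRF1-type letters lie at -190 and -104, and the YY1-type letters lie after the start. Of the 80 symbols of nuclear members, 70 had 1 protein-coding window. The ETS-type letters stood in 28.6% of these 70 windows, beside 10.7% of all 21842 protein-coding windows, the NRF1-type letters in 11.4% beside 3.11%, and the YY1-type letters in 14.3% beside 2.07%. The TATA box stood in 6 of the 70 members' windows and in 2843 of all 21842. Members' windows had a median of 20 CpG dinucleotides, beside 11 over all windows, at a median GC content of 56% and 55%. These are matches of letters, and no binding was measured.

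**Figure D2:**
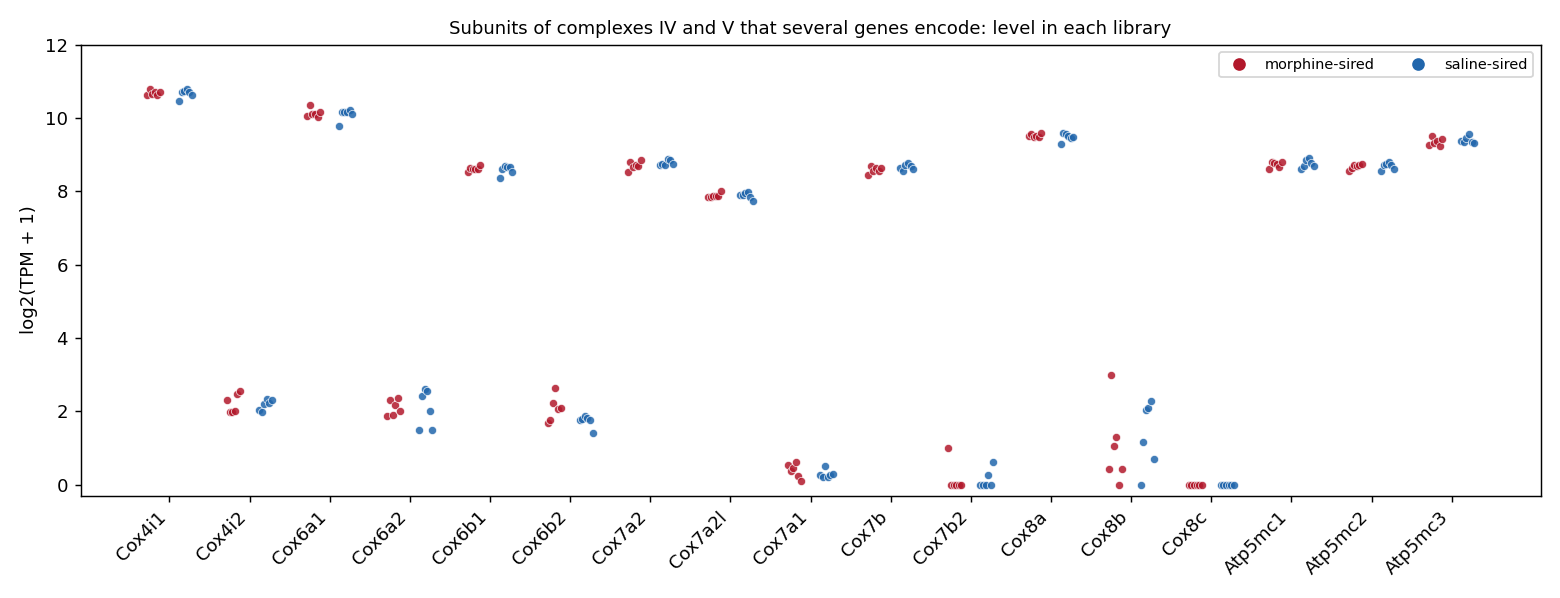
Level in each library, as log2(TPM + 1), of subunits of complexes IV and V that several genes encode, with morphine-sired libraries left of saline-sired ones. For Cox6b1 the assembled transcripts of its locus are included by exon overlap and for Cox7a1 the annotated transcript alone is drawn. General forms such as Cox4i1 and Cox8a lie far above forms known from other tissues, such as Cox4i2 and Cox8b, in both groups.

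Cox6b2, known as the testis form of subunit 6b, was the one member with an unadjusted p under 0.05 in limma. It lay at 2.21 to 5.22 TPM (median 3.22) in morphine-sired libraries, against 1.67 to 2.66 TPM (median 2.44) in saline-sired libraries, and the groups overlapped. The log2 difference of 0.34 ± 0.16 had an adjusted p of 0.9998 in limma and rests on a level near 3 TPM. The general form, Cox6b1, shares its locus on chromosome 1 with Psenen, and its annotated transcript lay at only 7.95 to 18.6 TPM in morphine-sired and 8.04 to 11.2 TPM in saline-sired libraries, a difference of 0.30 ± 0.18. An assembled transcript that shares 540 bases with Cox6b1 and 257 with Psenen had a mean of 377 TPM. With it, Cox6b1 lay at 370 to 418 TPM (median 389) in morphine-sired libraries and at 328 to 412 TPM (median 395) in saline-sired libraries, with means of 391 ± 16.1 TPM in morphine-sired and 385 ± 31.7 TPM in saline-sired rats, far above Cox6b2 in both. Cox7b, a small subunit encoded on chromosome X, had a difference of -0.07 ± 0.05. Cox7c, at 114 to 394 TPM in morphine-sired and 151 to 376 TPM in saline-sired libraries, had the widest spread of the nuclear members at 100 TPM or more, a coefficient of variation of 39.3%. Its sum depends on how reads are shared between 2 transcripts of unlike length. The annotated one of 474 nt lay at 64.7 to 364 TPM in morphine-sired and 99.7 to 356 TPM in saline-sired libraries. An assembled one of 5312 nt lay at 29.4 to 50.4 TPM in morphine-sired and 19.9 to 51.4 TPM in saline-sired libraries. What this split has to do with the spread was not tested.

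Complex V makes ATP. Its catalytic subunits Atp5f1b (beta) and Atp5f1a (alpha) were the highest of its nuclear entries. Atp5f1b lay at 1477 to 1656 TPM (median 1528) in morphine-sired libraries, against 1461 to 1654 TPM (median 1550) in saline-sired libraries. Atp5f1a averaged 958 ± 33.9 TPM in morphine-sired and 956 ± 49.2 TPM in saline-sired rats. The 16 nuclear entries summed to 8154 ± 353 TPM in morphine-sired and 8228 ± 464 TPM in saline-sired rats.

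The proton-carrying c ring is built of one mature peptide that 3 genes encode. Atp5mc3 gave 44.1 ± 1.49% of their summed TPM in morphine-sired and 44.5 ± 1.10% in saline-sired rats. Atp5mc1 gave 28.4 ± 0.345% and 28.4 ± 0.627%, and Atp5mc2 gave 27.5 ± 1.38% and 27.2 ± 0.985%, in morphine-sired and saline-sired rats. The mix of c genes therefore differed by less than the spread between libraries. Atp5if1, the inhibitor that blocks the enzyme from running backwards, averaged 469 ± 12.6 TPM in morphine-sired and 465 ± 34.3 TPM in saline-sired rats. Atp5pb (subunit b of the stalk), Atp5md and Atp5mg (small membrane subunits) had the smallest p of its nuclear entries, with differences of -0.09 ± 0.05, -0.11 ± 0.08 and -0.05 ± 0.06 and overlapping groups. With annotated transcripts alone the difference of Atp5mg was -0.64 ± 0.41.

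The nuclear members were low together in 3 libraries, which lie in both groups. Their sum was lowest in morphine-sired 1 among the morphine-sired libraries (25254 TPM, the other 5 at 26398 to 28705 TPM, highest in morphine-sired 2) and lowest in saline-sired 1 and 6 among the saline-sired libraries (24778 and 25320 TPM, the other 4 at 27218 to 28712 TPM). The same 3 libraries were the lowest of their groups in each of the 5 complexes. In 65 of the 82 nuclear members (79.3%) the lowest of the 12 values lay in one of these 3 libraries, beside 27.3% of all genes tested. They are the 3 libraries low in cholinergic markers. The serotonergic gene Tph2 was also lowest there, at 0.489 TPM in morphine-sired 1 and 0.450 and 0.672 TPM in saline-sired 1 and 6. Elsewhere Tph2 lay at 1.15 to 445 TPM. Slc18a2, another serotonergic marker, was lower in morphine-sired 5 (7.12 TPM) than in morphine-sired 1 (9.33 TPM). Other neuronal markers did not move one way there. The neurofilament gene Nefl was lowest in morphine-sired 1 (682 TPM) and saline-sired 1 (634 TPM), with 932 to 2422 TPM elsewhere, whereas Slc17a6, a glutamate transporter of synaptic vesicles, was highest in morphine-sired 1 (204 TPM), saline-sired 1 (202 TPM) and saline-sired 6 (206 TPM), with 78.2 to 176 TPM elsewhere. The part that cell makeup played was not tested, and in bulk tissue fewer cells of a type and less RNA per cell cannot be told apart. The group means of the nuclear sum were 27024 ± 1197 TPM in morphine-sired and 27013 ± 1606 TPM in saline-sired rats, a difference of 0.0393% of the saline-sired mean. Without these 3 libraries, 17 of the 82 nuclear members in place of 41 had the higher mean in morphine-sired rats, the median log2 difference was -0.04 beside 0.01 over all genes, and limma called 0 members, with 2 of the 82 nuclear ones (and 3.00% of all genes in that fit) at an unadjusted p under 0.05.

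**Figure D3:**
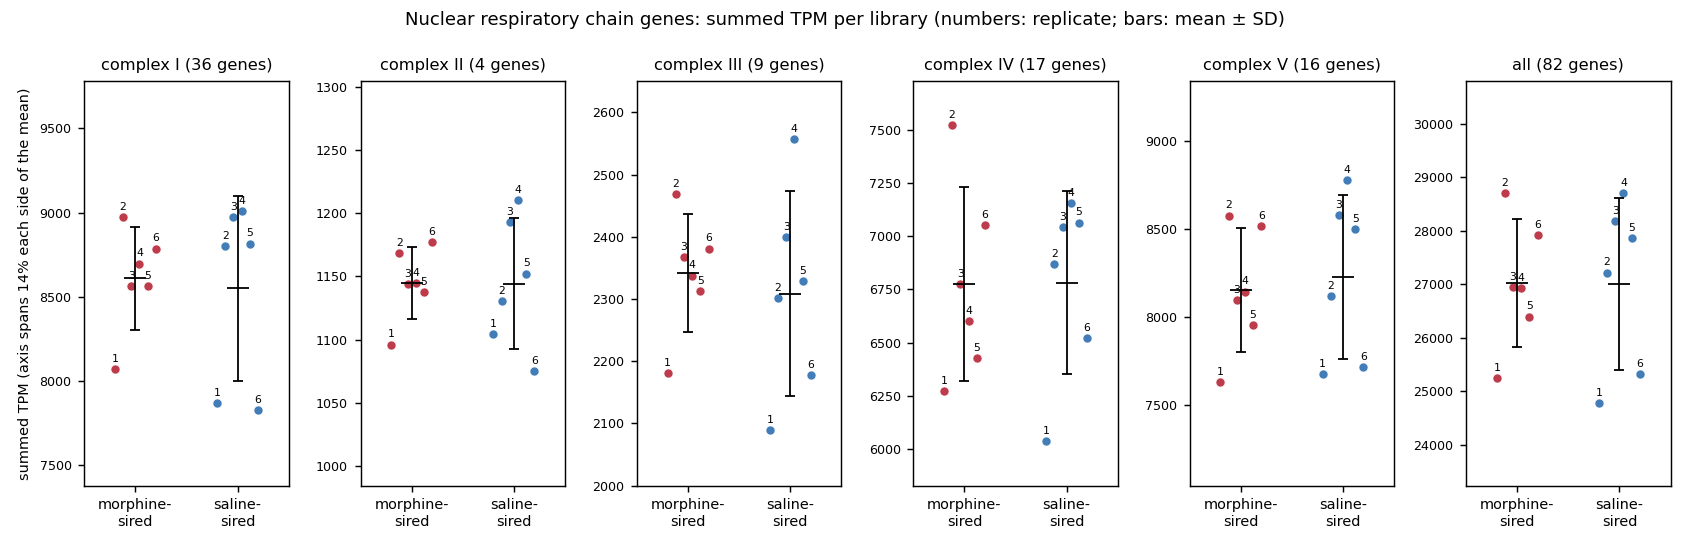
Summed TPM of the nuclear members of each complex and of all 82, per library (points, numbered by replicate), with the mean and SD of each group, morphine-sired left of saline-sired. Each vertical axis spans 14% on either side of the mean and does not start at 0; morphine-sired 1 and saline-sired 1 and 6 lie lowest of their groups in every panel.

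The share of each complex in the nuclear sum hardly moved. Complex I made up 31.3 to 32.4% in morphine-sired and 30.9 to 32.3% in saline-sired libraries, complex IV 24.3 to 26.2% in morphine-sired and 24.4 to 25.8% in saline-sired libraries, and complex V 29.9 to 30.5% in morphine-sired and 29.8 to 31.0% in saline-sired libraries. Complex II, with its 4 genes, made up 4.07 to 4.34% in morphine-sired and 4.14 to 4.46% in saline-sired libraries, and complex III 8.53 to 8.79% in morphine-sired and 8.36 to 8.91% in saline-sired libraries. The complexes therefore kept their proportions while the sum went up and down.

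The mRNAs of the 13 mitochondrial genes are cut from long transcripts of the circular mitochondrial genome. A mitochondrial gene had 25.6 times the mean TPM of a nuclear member (8443 against 329 TPM). The order by mean was COX1 (20735 TPM), COX3 (14879), ATP6 (14178), COX2 (13620), CYTB (10022), ATP8 (8552), ND1 (7716), ND2 (6958), ND4L (3374), ND5 (2886), ND4 (2550), ND6 (2188) and ND3 (2099). Over the 12 libraries, COX1 and COX3, COX2 and CYTB, and ND2 and ND4L did not overlap in their ranges, while every other pair of neighbours in this order did. The catalytic subunit COX1 exceeded every other mitochondrial gene in every library. The 3 subunits of complex IV lay above the 7 of complex I in every library.

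**Figure D4:**
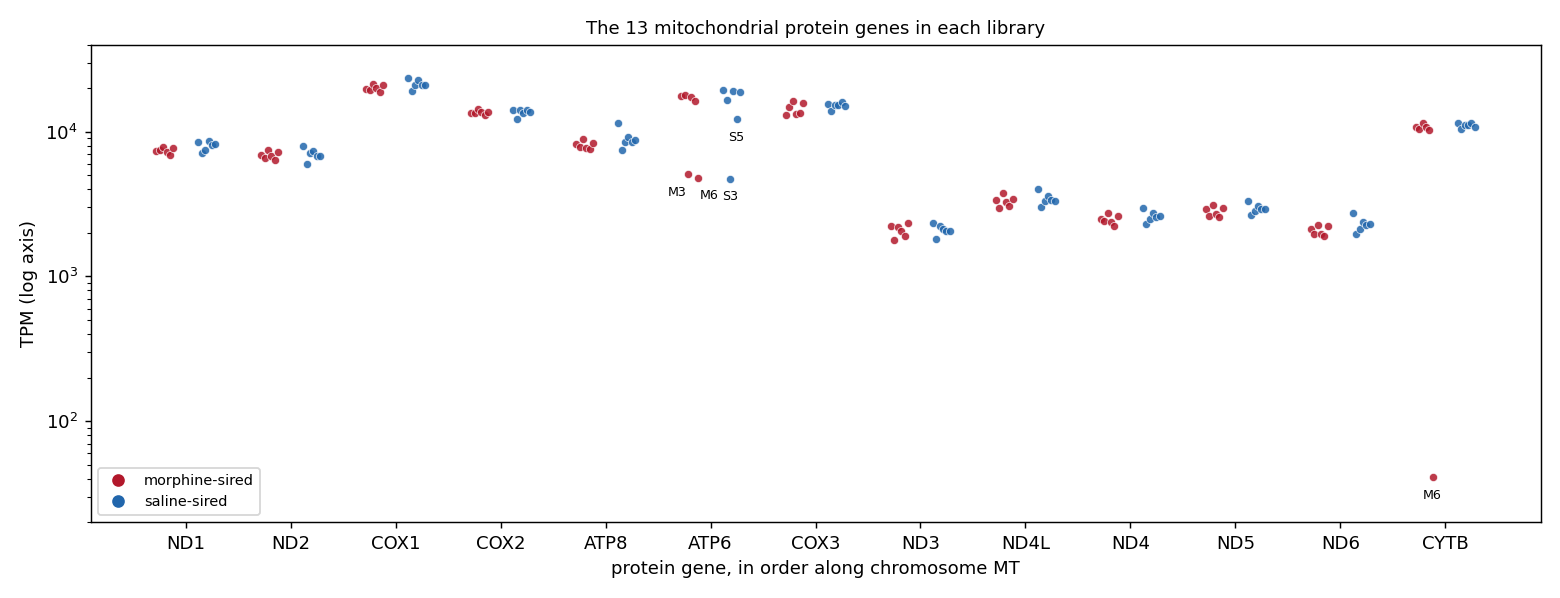
TPM of the 13 mitochondrial protein genes (log axis) in each library, in their order along chromosome MT, with morphine-sired libraries left of saline-sired ones. Most genes keep within a narrow band in both groups, while ATP6 is low in morphine-sired 3 and 6 and saline-sired 3 and 5 (M3, M6, S3, S5), and CYTB is at 40.8 TPM in morphine-sired 6 (M6).

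COX1 lay at 18708 to 21376 TPM (median 19862) in morphine-sired libraries, against 19082 to 23462 TPM (median 21097) in saline-sired libraries, a log2 difference of -0.09 ± 0.05. ND1, a core membrane subunit of complex I, lay at 6934 to 7805 TPM (median 7453) against 7087 to 8647 TPM (median 8152) in saline-sired libraries, a difference of -0.10 ± 0.05. ND6, the one protein gene on the other strand, lay at 1900 to 2284 TPM (median 2042) against 1973 to 2745 TPM (median 2287) in saline-sired libraries, a difference of -0.14 ± 0.08. The ranges overlapped in all 3 genes, and saline-sired 1 or saline-sired 4 held the highest value. The labels do not say whether the libraries keep the strand, and reads of ND6 and of transcripts opposite to it cannot be told apart.

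The other mitochondrial genes differed by less, or varied more. Differences were -0.14 ± 0.08 for ATP8, -0.08 ± 0.06 for COX3 and ND4, -0.07 ± 0.06 for ND5, -0.06 ± 0.07 for ND4L, -0.03 ± 0.06 for ND2, -0.02 ± 0.07 for ND3 and -0.01 ± 0.04 for COX2. All 13 had the lower mean in morphine-sired rats, but genes cut from a shared transcript are not independent, and all except ND6 lie on the same strand. The smallest adjusted p among the 13 in limma was 0.9998. The highest value of 7 of the 11 genes other than ATP6 and CYTB lay in saline-sired 1. Without saline-sired 1, 3 of the 13 genes had the higher mean in morphine-sired rats, and under quantile normalization 4 of the 13 did. Quantile normalization sets values by rank, so genes near the top of every library have little room to differ. COX1 had no difference beyond rounding under it, so this count is a weak check.

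ATP6 and CYTB were each listed far lower in some libraries than in the rest, ATP6 in libraries of both groups. ATP6, the channel subunit of the ATP synthase (positions 7919 to 8599 of chromosome MT, Rnor_6.0), overlaps ATP8 upstream and adjoins COX3 downstream. It was at 5092 TPM in morphine-sired 3, 4818 TPM in morphine-sired 6, 4738 TPM in saline-sired 3 and 12185 TPM in saline-sired 5, and at 16324 to 17832 TPM in the other morphine-sired and 16601 to 19552 TPM in the other saline-sired libraries. Its neighbours did not share this: in the 4 low libraries ATP8 lay at 8310 to 8887 TPM and COX3 at 15397 to 16405 TPM, within or above their values elsewhere. CYTB, cytochrome b of complex III (positions 14136 to 15278), was at 40.8 TPM in morphine-sired 6, against 10351 to 11491 TPM in the other morphine-sired and 10408 to 11526 TPM in the saline-sired libraries. In morphine-sired 6 alone, an assembled transcript of 2 exons that shares 1521 bases with a gene at positions 1094 to 2664, in the ribosomal RNA region, and 1129 bases with CYTB was listed, at 4769 TPM. It is 2650 nt long, and the annotated CYTB transcript is 1143 nt long. The annotated transcript of the gene at positions 1094 to 2664 was not low there, at 2520 TPM beside 1911 to 2398 TPM in the other morphine-sired libraries. The values are StringTie's shares of the reads among neighbouring and overlapping transcripts, and the reads were not analysed here. Whether less RNA from a gene or another assignment of its reads lies behind the low values was not tested. Differences of these genes rested on single libraries. CYTB differed by -1.37 ± 1.19 over all libraries and by -0.04 ± 0.04 without morphine-sired 6. ATP6 differed by -0.27 ± 0.45 over all libraries, by -0.03 ± 0.42 without morphine-sired 6, by -0.04 ± 0.43 without morphine-sired 3 and by -0.58 ± 0.39 without saline-sired 3.

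The balance of the genomes was taken as the summed TPM of the 13 mitochondrial genes over that of the 82 nuclear members, as a description with no test. It lay at 3.30 to 4.37 (median 3.96) in morphine-sired libraries, against 3.64 to 5.15 (median 4.11) in saline-sired libraries, with means of 3.91 ± 0.352 and 4.24 ± 0.554 in morphine-sired and saline-sired rats (SD, n = 6 each). The log2 ratio differed by -0.11 between the group means, within the pooled SD of 0.16 between libraries. Saline-sired 1 held the highest ratio, with the highest mitochondrial sum (127613 TPM) and the lowest nuclear sum of the 12, and morphine-sired 6 the lowest, with CYTB and ATP6 both low there. Without ATP6 and CYTB the ratio was 2.84 to 3.35 (median 3.07) in morphine-sired libraries and 2.85 to 3.90 (median 3.16) in saline-sired libraries, a log2 difference of -0.08. Morphine-sired 6 then stood at 3.13, in the middle of its group, and saline-sired 1 stayed the highest at 3.90.

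**Figure D5:**
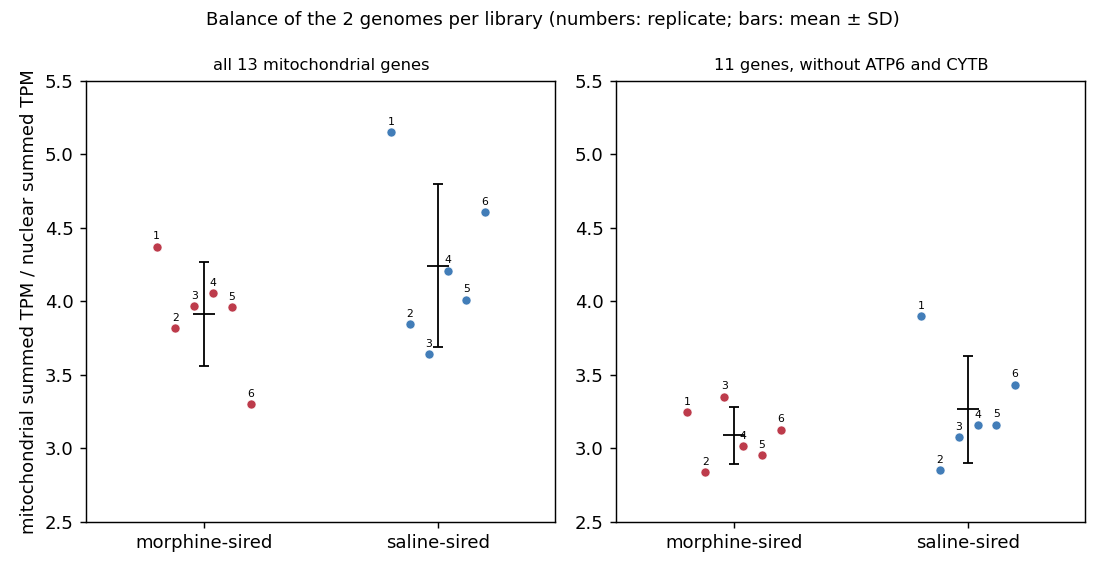
Ratio of mitochondrial to nuclear summed TPM per library (points, numbered by replicate) with the mean and SD of each group, morphine-sired left of saline-sired, for all 13 mitochondrial genes and without ATP6 and CYTB. The vertical axes run from 2.5 to 5.5; the groups overlap in both panels, and saline-sired 1 is highest in both.

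Taken by complex, the mitochondrial genes exceeded their nuclear partners most in complex IV, at 7.12 ± 0.446 times in morphine-sired and 7.46 ± 0.749 times in saline-sired rats. In complex I the ratio was 3.15 ± 0.237 in morphine-sired and 3.35 ± 0.432 in saline-sired rats. All nuclear sums, shares and ratios here count Ndufs8 and the Cox6b1 of chromosome 1 by their annotated transcripts alone, at means of 25.2 and 10.8 TPM. By exon overlap that Cox6b1 had a mean of 388 TPM. The sums also hold the 78.6 TPM of the Cox7a1 locus and the single-exon copies of Uqcrb and Cox6b1. With exon overlap the log2 ratio of the genomes still differed by -0.11. The mitochondrial members held 9.21 to 11.0% of a library's TPM in morphine-sired and 10.3 to 12.8% in saline-sired rats, and the nuclear members 2.53 to 2.87% in morphine-sired and 2.48 to 2.87% in saline-sired rats. The groups overlapped in each of these shares. The libraries were made from polyA RNA, and mitochondrial mRNA carries short tails, so the ratio compares libraries and does not give the ratio of mRNA in the tissue.

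Lists of genes that build, feed or express the respiratory chain were read from the same limma fit, and none of their genes passed an adjusted p of 0.05. Of 15 tested assembly factors of complex I, 8 had the higher mean in morphine-sired rats, with a median log2 difference of 0.00, beside -0.00 over all genes. Ndufaf4 (-0.14 ± 0.08) and Ndufaf3 (0.12 ± 0.07) had the smallest p. Of 10 assembly factors of complexes II and III, 5 were higher, and 2 had an unadjusted p under 0.05, as had 3.22% of all genes. Uqcc3, which stabilises cytochrome b, averaged 55.4 ± 5.00 TPM in morphine-sired and 46.8 ± 4.85 TPM in saline-sired rats (0.24 ± 0.08), and Sdhaf2, which helps Sdha take up its flavin, averaged 52.7 ± 2.36 TPM and 58.0 ± 3.63 TPM in morphine-sired and saline-sired rats (-0.13 ± 0.05), with groups that overlapped in both. Of 18 assembly factors of complex IV, 5 were higher (median -0.04), led by Pet100 (-0.13 ± 0.06) and Cox15 (-0.14 ± 0.07), and of 5 factors of the ATP synthase 1 was higher, with Atpaf1 at -0.19 ± 0.12 and Atpaf2 at -0.19 ± 0.13.

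Genes that copy and express the mitochondrial genome had the higher mean in morphine-sired rats in 7 of 30 cases, with a median of -0.04, and Mtpap, the mitochondrial poly(A) polymerase (-0.15 ± 0.08), and Fastkd1 (-0.10 ± 0.07) had the smallest p. Of 12 regulators of mitochondrial biogenesis 6 were higher, among them Yy1 (0.16 ± 0.09), and the coactivator Ppargc1a lay at -0.12 ± 0.07. Of 75 mitochondrial ribosomal proteins 34 were higher, with a median of -0.00. Mrps18b averaged 34.6 ± 3.01 TPM in morphine-sired and 41.0 ± 3.73 TPM in saline-sired rats (-0.24 ± 0.07), and Mrpl58 averaged 61.5 ± 4.23 TPM and 55.2 ± 2.54 TPM in morphine-sired and saline-sired rats (0.15 ± 0.05). Both had an unadjusted p under 0.05, as had 3 of the 75 in all, beside 3.22% of all genes.

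Pathways that feed the chain did not pass either. Of 16 citric acid cycle genes 5 were higher in morphine-sired rats (median -0.01), and Dld, the dihydrolipoamide dehydrogenase shared by several oxo acid dehydrogenases, averaged 95.4 ± 2.47 TPM in morphine-sired and 104 ± 9.57 TPM in saline-sired rats (-0.12 ± 0.06). Sucla2 differed by -0.09 ± 0.06. Of 17 glycolytic genes 13 were higher (median 0.02), with Pfkl at 0.09 ± 0.07 and Gpi at 0.06 ± 0.05. Of 22 electron carriers and related subunits outside the names used here, 10 were higher, with Aifm1 at -0.09 ± 0.05 and Etfa at -0.10 ± 0.07, and of 9 tested adenine nucleotide and uncoupling carriers 3 were higher, with Slc25a27 at -0.18 ± 0.11 and the outer membrane channel Vdac2 at -0.06 ± 0.05. Every one of these genes had overlapping groups.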

How the data were processed

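PolyA RNA of periaqueductal grey tissue was sequenced from 12 male rats, 1 library each. Per the submitters' processing notes, reads were handled on Rnor_6.0 with a list of tools that names HISAT2 2.2.0 and DESeq2 1.28.1, with Trimmomatic 0.39, SAMtools 1.11 and FastQC 0.11.9, and with StringTie 2.1.2, for which the file headers give 1.3.6. The authors deposited, per library, TPM, FPKM and coverage for 76232 transcripts, 41063 of them annotated. These are estimates scaled to each library's total and not read counts, so no count test was run. Of the deposited table of log2 values only the gene names were used, and its 12 columns of values were not.

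TPM was summed per locus and symbol. An assembled transcript was given to a symbol only where its locus has one, and as an alternative to the symbol whose annotated exons it shares most bases with. The filter was 0.5 TPM on the mean of the 12 libraries. Each gene past it entered limma (3.58.1, under R 4.3.3; a moderated linear model with a mean-variance trend) on log2(TPM + 1), which understates changes of low genes. Sums and ratios over members were described without a test. Depth is the median ratio of coverage to FPKM. The test was tested on simulated data: of 200 genes among 24540 changed 1.5-fold in TPM + 1, it recovered 42.5%, and 76.5% of those changed 2-fold. Sums were made in Python 3.11.15 with pandas 2.3.3 and numpy 2.4.6.

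Members given with statistics were the 13 mitochondrial genes and the 3 nuclear members of each complex with the smallest p, with levels for the 3 highest of each complex and for fixed sets of paralogs. Other members were named after their values were seen, and up to 2 genes with the smallest p were named from each list. The members and the lists were chosen with earlier results of these data known. Litters and sires are not among the labels, and p-values measure the spread between these animals, some of which may be related. Alternatives left out each library in turn or 3 together, and changed the pseudocount, scaling, unit, filter and transcripts counted. One member is not reported by name here.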

Additional observations from a re-analysis of the deposited data

Results flagged for a closer look

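Over 212 groups of 6 values (each member, the sums by complex and genome, and the balance, in each group of rats), 14 held a highest or lowest value set apart from the other 5 by more than Dixon's 95% critical share of the group's range. Chance flags about 1 in 20 groups, here 10.6, so the number of flags is near that, and most are modest. In morphine-sired 6, CYTB was at 40.8 TPM, beside 10351 to 11491 TPM in the other morphine-sired libraries, and the mitochondrial sum was at 92146 TPM, beside 104585 to 110430 TPM. Ndufa5 was at 28.2 TPM in morphine-sired 2, beside 1.10 to 1.65 TPM in the other 5, in a locus where assembled transcripts hold the exons of 2 genes. Cox8b was at 6.92 TPM in morphine-sired 2, beside 0 to 1.46 TPM.

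The other flags were nuclear members at moderate distance. Atp5md was at 163 TPM in morphine-sired 1 (the other 5 at 195 to 203 TPM) and Ndufa9 at 168 TPM there (184 to 192 TPM). Ndufb7 was at 379 TPM in morphine-sired 2 (308 to 333 TPM) and Cox7a2l at 255 TPM in morphine-sired 6 (230 to 235 TPM). In saline-sired 1, Atp5f1d was at 369 TPM (498 to 526 TPM) and Cox6a1 at 886 TPM (1095 to 1196 TPM). In saline-sired 2, Cox6c was at 324 TPM (493 to 579 TPM), and in saline-sired 3, Ndufc1 was at 35.1 TPM (24.6 to 27.7 TPM). In saline-sired 6, Ndufb5 was at 107 TPM (117 to 121 TPM) and Cox6b2 at 1.67 TPM (2.36 to 2.66 TPM).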

How the results depend on the processing

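The count of members called stayed at 0 in all 21 alternatives. The count over all genes was 0 to 1 as each library was left out (1 without saline-sired 4 or saline-sired 6) and 1 without the 3 libraries low in cholinergic markers. The number of mitochondrial genes higher in morphine-sired rats, 0 of 13, was 0 to 3 as each library was left out (3 without saline-sired 1), 4 under quantile normalization and 2 without the 3 libraries. The number of nuclear members higher, 41 of 82, was 26 to 52 as each library was left out (26 without saline-sired 1) and 17 without the 3 libraries. The log2 balance of the genomes kept its sign in 18 alternatives, at -0.20 to -0.04. The mitochondrial sums of complexes III and V rested on single libraries: complex III (CYTB alone) differed by -1.38 over all libraries and by -0.04 without morphine-sired 6, and complex V by -0.19 over all, -0.06 without morphine-sired 6 and -0.35 without saline-sired 3. All sums by complex, those of complexes III and V included, moved by less than the SD between libraries. For complexes III and V that SD includes the spread from these same libraries. Signs of small log2 differences turned. Under quantile normalization ND1 was at 0.063, ND2 at 0.036, COX2 at 0.070, ATP8 at 0.086 and Sdha at -0.010. For the mitochondrial genes, which rank near the top of every library, these signs depend on how that method sets values by rank. Without the 3 libraries ND2 was at 0.013, COX2 at 0.010, Ndufb8 at -0.0051 and Sdha at -0.013. As each library was left out, ND2 ran over -0.071 to 0.013, COX2 over -0.037 to 0.0050, ND3 over -0.057 to 0.028, Sdha over -0.0034 to 0.029 and Sdhd over -0.062 to 0.017. The cause was not tested. The replicate numbers were given in accession order and pair no samples. Alternatives with the 3 libraries left out, with exon overlap, without ATP6 and CYTB and for the numbers of higher members were chosen after seeing the data. The files give no read counts, so the limit that depth sets for each gene was not computed.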

Other observations

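Isoforms within members were described apart from their sums. Ndufv3, the gene of a small flavoprotein subunit of complex I, has a short annotated transcript of 486 nt and a long one of 1562 nt. The long form made up 26.0 to 31.7% of the annotated TPM (median 27.6%) in morphine-sired libraries and 24.5 to 28.2% (median 25.4%) in saline-sired libraries, with overlapping groups and its highest share in morphine-sired 3. Ndufa12 has annotated transcripts of 549 and 647 nt, and the longer one made up 37.1 to 44.8% in morphine-sired and 36.6 to 44.1% in saline-sired libraries.

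The low values of nuclear members in saline-sired 1 were lower for short mRNAs. The 51 nuclear members with annotated transcripts of at most 800 nt lay at a median of -0.15 (log2) from their mean over the libraries, and the 31 longer ones at -0.06. Among other nuclear genes at 50 TPM or more, the 375 short ones lay at -0.11 and the 2986 longer ones at -0.01 in the same library. In morphine-sired 1 short and long members both lay at -0.08, and in saline-sired 6 they lay at -0.09 and -0.07, short and then long. What length has to do with the pattern was not tested.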
